A study of Mus musculus with 5 samples.

Results

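The 10 genes described here are Ifit1, Ifit2, Ifit3, Isg15, Usp18, Rsad2, Cmpk2, Rtp4, Xaf1 and Ifi27l2a, a core of the antiviral genes that cells switch on under interferon. They were taken by symbol from the deposited gene lists, and all 10 were found among 32285 genes. The groups were Decoy, with 4 libraries (Decoy 2, Decoy 3, Decoy 5 and Decoy 6), and PBS, with 1 library. In both groups C57BL/6 mice had received GFP-marked CMM cells, a transplantable mouse inv(16) acute myeloid leukaemia, into a vein. Treatment was started when about 1% of blood cells were GFP-positive and comprised 3 intravenous injections, on alternate days, of CpG-STAT3dODN in the Decoy group and of PBS in the control. CpG-STAT3dODN couples a CpG sequence with a decoy oligonucleotide that STAT3, a transcription factor, binds; CpG DNA is the ligand of the endosomal receptor TLR9. GFP-positive, c-Kit-positive spleen cells were sorted, and transcripts of single cells were counted as UMIs (unique molecular identifiers). Whether the libraries stem from separate animals is not given in the labels; the p-values therefore reflect library-to-library spread, which may be technical, and each fit takes the spread of the lone PBS library to equal that among Decoy libraries.

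Type I interferon binds the receptor made of Ifnar1 and Ifnar2, and the kinases Jak1 and Tyk2 then activate transcription factors such as Stat2, which acts with Irf9 in a complex that binds the interferon-stimulated response element (ISRE) in the promoters of antiviral genes. TLR9 signals through Myd88 and Irf7 to the interferon genes themselves, most strongly in plasmacytoid dendritic cells. Ifit1, Ifit2 and Ifit3 bind viral RNA and hinder its translation. Isg15 is a ubiquitin-like protein that is attached to other proteins, and Usp18 removes it and also damps signalling at the interferon receptor. Rsad2 (viperin) makes a chain-terminating nucleotide, and Cmpk2 is a mitochondrial nucleotide kinase. Xaf1 binds the apoptosis inhibitor XIAP, Rtp4 is an interferon-induced chaperone-like protein that limits viral replication, and Ifi27l2a is an interferon-induced membrane protein.

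Promoter sequences from RefSeq (GRCm38.p6) were available for 7 of the 10 genes, and are shown where the ISRE core (GAAA, any 2 bases, GAAA), searched on both strands, occurred in the 300 bases around the start site. Usp18, Rtp4 and Ifi27l2a had no entry. Capitals mark the matches, read 5′ to 3′ on the strand of the gene, with 10 bases on either side.
Ifit1: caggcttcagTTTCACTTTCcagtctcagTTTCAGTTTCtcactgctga
Ifit3: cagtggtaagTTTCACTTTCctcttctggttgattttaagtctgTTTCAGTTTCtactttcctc
Isg15: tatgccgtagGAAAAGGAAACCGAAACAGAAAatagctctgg
Rsad2: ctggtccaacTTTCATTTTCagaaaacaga
The stretch of Ifit1 lies on the plus strand at chr19:34640775-34640823 and that of Ifit3 on the plus strand at chr19:34583363-34583426, each with 2 matches on the opposite strand of the gene. The stretch of Isg15 lies on the minus strand at chr4:156200865-156200906 and holds 3 overlapping matches, and that of Rsad2 lies on the minus strand at chr12:26456553-26456582 with 1 match, also on the opposite strand of the gene. Ifit2, Cmpk2 and Xaf1 had no match in this window. Of all 27025 genes with promoter sequences, 3.99% had a match in at least 1 promoter. The gamma-activated motif TTCNNNGAA, searched the same way, occurred in Ifit2 alone of the 7 and in 9.55% of all 27025 genes. Rsad2 and Cmpk2 are neighbours on chromosome 12, 12752 bases apart (mm10), and the IFIT genes lie together on chromosome 19, from the start of Ifit2 at 34550694 to the end of Ifit1 at 34650009. In the same build Usp18 lies at chr6:121245906-121270917, Xaf1 at chr11:72301629-72313733 and Rtp4 at chr16:23520291-23614222, all on the plus strand, and Ifi27l2a at chr12:103442167-103443680 and Isg15 at chr4:156199424-156200818, both on the minus strand. Of the 50-base words in the exons of Ifit3, 51.2% also occur in Ifit3b, so counts of Ifit3 are uncertain where reads could be assigned to either gene; for Ifit1 the share was 7.13%, shared with Ifit1bl1 and Ifit1bl2, and for Rtp4 11.6%, shared with Gm45338.

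After filtering, 6250, 1933, 3607 and 3216 cells were kept in Decoy 2, 3, 5 and 6 and 16034 in PBS, with median UMIs per cell of 14005 to 36505 in Decoy and 30705.5 in PBS. The libraries differed in which cells they held. Clusters with Xist of 769 to 1398 CPM and Y-linked transcripts of at most 0.751 CPM, called Xist-bearing here, made up 84.1%, 19.6%, 0.0277% and 44.2% of the kept cells in Decoy 2, 3, 5 and 6 and 91.6% in PBS. Their Kit level was 43.8 to 51.9 CPM in Decoy 2, 3 and 6 and 51.4 in PBS. Of their 5 clusters, 2 carried 5 of 10 mast cell and basophil markers. The others matched best the T cell list with 1 marker, the erythroid list with 2 and the erythroid list with 4. This last cluster was led by the globin gene Hbb-y. The other classes resembled blood cells that carried Y-linked transcripts: granulocyte-monocyte progenitor-like, neutrophil-like, macrophage-like, erythroid-like, B cell-like, plasma cell-like, T cell-like and dendritic-like cells. GFP was not analysed here. Between 1 and 45 cell barcodes were shared by a pair of libraries, at most 0.695% of the smaller library. Levels are given in CPM, the UMIs of a gene scaled to the same total for every library or class; log2 fold changes are Decoy over PBS from edgeR's quasi-likelihood test with Benjamini-Hochberg adjustment over all genes tested, and a gene was called at an adjusted p under 0.05.

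Over all kept cells, 8 of the 10 genes were above PBS in every Decoy library, but none was called at 4 libraries against 1. Ifi27l2a was 61.1, 472, 716 and 353 CPM in Decoy 2, 3, 5 and 6, against 5.70 in PBS (log2 fold change 6.07 ± 1.74, SE; adjusted p = 0.465). All 4 Decoy libraries were above PBS, with Decoy 2 the lowest of them. In a library sum, fewer cells of a type and less RNA per cell cannot be told apart. Ifit3 was 1.5, 8.56, 12.9 and 7.66 CPM in Decoy, against 0.122 in PBS (log2 fold change 5.91 ± 1.55, adjusted p = 0.465). Rtp4 was 6.93, 40.1, 57.7 and 34.9 CPM in Decoy, against 2.01 in PBS (log2 fold change 4.05 ± 1.35, adjusted p = 0.465). In these genes Decoy 2 again lay nearest to PBS, as it did in its share of Xist-bearing cells.

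In these library sums Isg15 and Rsad2 did not follow the other 8. For both genes the sums include haemoglobin-rich red cells, described below, with 551 cells in PBS and 15 in Decoy. Those cells held 17066 Isg15 and 8858 Rsad2 UMIs in PBS, and 436 and 332 in Decoy. Isg15 was 33.4, 99.5, 163 and 45.1 CPM in Decoy, against 53.2 in PBS, so the groups overlapped (log2 fold change 0.62 ± 0.93, adjusted p = 0.688). Rsad2 was 1.43, 10.8, 16.6 and 10.8 CPM in Decoy, against 18.9 in PBS, with every Decoy library below PBS (log2 fold change -0.99 ± 1.08, adjusted p = 0.605). The median log2 fold change of the 10 genes was 2.46 and that of all 16006 genes tested 0.02. No gene of the 16006 was called, 0.0%, although 1667 had an unadjusted p under 0.05; 10.1% of all genes were higher at that level, and 31.2% of genes with at least 10 UMIs were above PBS in every Decoy library. DESeq2 called 6 of the 10 genes, with 12.5% of its genes called higher. Without Decoy 2, edgeR called 8 of the 10, with 15.1% of genes called higher, so this library decided the count. The part that the shares of cell classes played in these differences was not tested over all kept cells; the comparisons within classes follow.

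**Figure D1:**
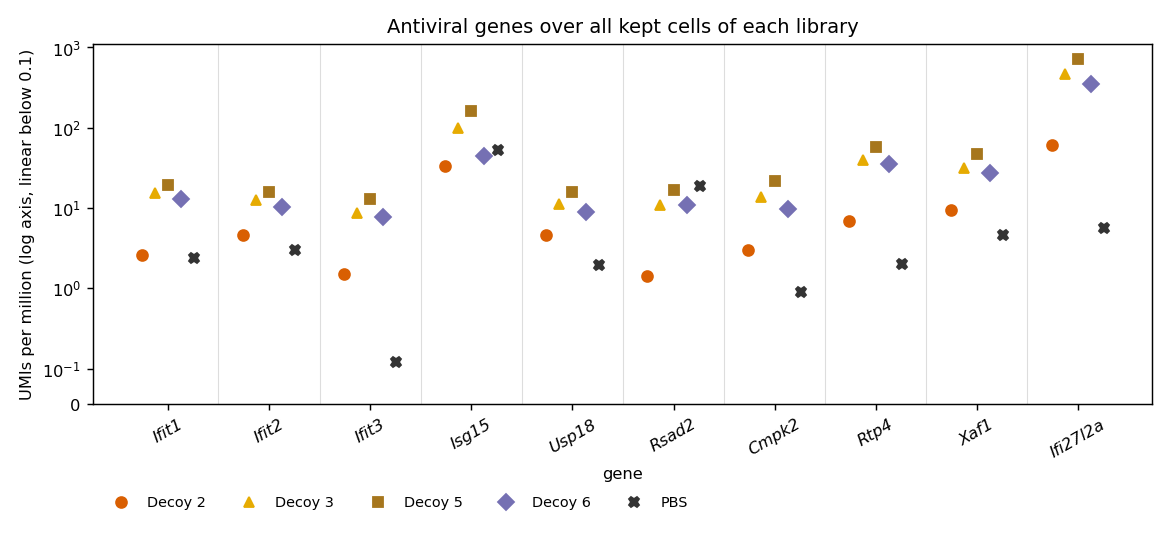
Level of the 10 genes over all kept cells (vertical axis, CPM, logarithmic above 0.1) in each Decoy library and in PBS; each point is 1 library. Ifi27l2a runs between 61.1 and 716 in Decoy, against 5.70 in PBS, while for Rsad2 the PBS library is the highest at 18.9.

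Within Xist-bearing cells, 4 of the 10 genes rose in Decoy: Usp18, Rtp4, Xaf1 and Ifi27l2a. The comparison rested on 5254, 379 and 1420 cells in Decoy 2, 3 and 6 and 14680 cells in PBS; Decoy 5 held 1 such cell and was left out. Xaf1 was 5.69, 7.32 and 6.60 CPM in Decoy 2, 3 and 6, against 2.49 in PBS (log2 fold change 1.45 ± 0.19, SE; adjusted p = 0.0135). Usp18 was 3.19, 3.46 and 3.81 CPM in Decoy, against 1.58 in PBS (log2 fold change 1.22 ± 0.21, adjusted p = 0.0323). The Decoy libraries lay close together in both genes and stood clear of PBS. Rtp4 was 1.23, 1.97 and 2.60 CPM in Decoy, against 0.284 in PBS (log2 fold change 2.81 ± 0.44, adjusted p = 0.0263). Ifi27l2a was 5.26, 9.52 and 12.7 CPM in Decoy, against 1.64 in PBS (log2 fold change 2.54 ± 0.41, adjusted p = 0.0270). In all 4 genes every Decoy library was above PBS. Of all 14320 genes tested, 0.601% were called higher and 0.663% in either direction. At an unadjusted p under 0.05, 7 of the 10 genes and 7.03% of all genes were higher. DESeq2 called the same number of members, 4, with 1.72% of genes called higher. The call of Rtp4 was lost when marked doublets were kept (adjusted p = 0.0687).

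The other 6 genes were not called in Xist-bearing cells. Ifit1 was 0.441, 1.49 and 1.11 CPM in Decoy, against 0.258 in PBS (log2 fold change 1.87 ± 0.61, adjusted p = 0.285). Ifit2 was 3.02, 2.60 and 2.96 CPM in Decoy, against 2.95 in PBS (log2 fold change 0.06 ± 0.19, adjusted p = 0.968). Ifit3 was 0.0823, 0 and 0.166 CPM in Decoy, against 0.0446 in PBS (log2 fold change 1.19 ± 0.92, adjusted p = 0.781). Ifit1 was above PBS in 3 of 3 Decoy libraries, and Ifit2 overlapped with PBS. Isg15 was 27.3, 52.9 and 21.0 CPM in Decoy, against 18.7 in PBS (log2 fold change 0.88 ± 0.36, adjusted p = 0.464). Cmpk2 was 0.542, 0.787 and 0.402 CPM in Decoy, against 0.233 in PBS (log2 fold change 1.29 ± 0.46, adjusted p = 0.367). Rsad2 was 0.247, 0.865 and 0.946 CPM in Decoy, against 1.30 in PBS (log2 fold change -1.08 ± 0.55, adjusted p = 0.595). Isg15 and Cmpk2 were above PBS in every Decoy library and Rsad2 below it in every one. In PBS, Rsad2 was 19.3 CPM in the Xist-bearing cluster led by Hbb-y and 0.396 to 4.01 in the other Xist-bearing clusters. In the cluster of 7582 cells, Decoy 3 was above PBS in Rsad2, at 1.07 against 0.714 CPM. In the other clusters Decoy 2, 3 and 6 lay below PBS. Without Decoy 6, Isg15 was called higher and Rsad2 was called lower, and without Decoy 2, Ifit1 was called higher, while 2.07% of all genes were called without Decoy 6 and 3.67% without Decoy 2. The median log2 fold change of the 10 genes was 1.26, and 16.1% of genes with at least 10 UMIs were above PBS in every Decoy library.

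Transcripts of other lineages were more frequent in the Xist-bearing cells of Decoy than of PBS. All 10 of a list of neutrophil, macrophage, B, plasma and T cell genes were above 0 in every library, with a summed level of 117, 185 and 145 CPM in Decoy 2, 3 and 6 and of 27.5 in PBS. The level of such a gene in Xist-bearing cells was at most 0.632% to 1.09% of its level in the other cells of the same Decoy library and at most 0.884% in PBS. When each gene's level was lowered by that highest ratio, 94.1% to 95.6% of Xaf1 UMIs and 95.8% to 97.0% of Usp18 UMIs were left in Decoy, against 75.5% and 92.7% in PBS. For Rtp4, 71.3% to 78.8% were left in Decoy and 0% in PBS, and for Ifi27l2a 29.6% to 55.2% were left in Decoy and 30.9% in PBS. The subtraction set Rtp4, Ifit1 and Rsad2 in PBS to 0 and took a larger share from PBS than from Decoy. The summed level of the 10 genes was 52.5 CPM in Decoy and 15.9 in PBS after the subtraction, against 60.1 in Decoy and 29.5 in PBS before it. The list held no red cell gene. Adult globin transcripts in Xist-bearing cells were 3244, 8382 and 6081 CPM in Decoy 2, 3 and 6 and 2191 in PBS. Calls made after the subtraction therefore carry no weight, and the part of other-cell RNA in the result was not tested otherwise.

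**Figure D2:**
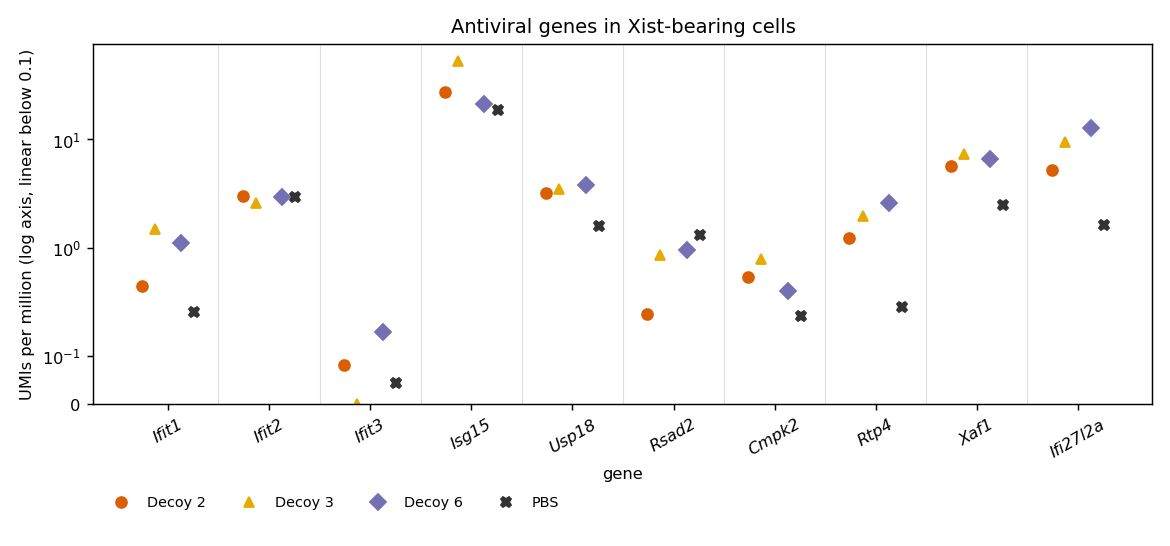
Level of the 10 genes in Xist-bearing cells (vertical axis, CPM, logarithmic above 0.1) in Decoy 2, 3 and 6 and in PBS; each point is 1 library. Usp18, Rtp4, Xaf1 and Ifi27l2a lie above PBS in all 3 Decoy libraries, Ifit2 lies at 2.60 to 3.02 against 2.95, and Rsad2 lies below the 1.30 of PBS.

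Granulocyte-monocyte progenitor-like cells were led by genes such as Mpo and Elane, but also by the monocyte gene F13a1 and the basophil genes Prss34 and Mcpt8. In this class Cmpk2 was the only member called. It was 22.3, 24.1, 24.9 and 26.8 CPM in Decoy 2, 3, 5 and 6, against 8.34 in PBS (log2 fold change 1.57 ± 0.17, SE; adjusted p = 0.0258). The 4 Decoy libraries lay within a narrow band above PBS, but the call was lost without Decoy 3, 5 or 6 in turn (adjusted p = 0.0616 to 0.0863) and with limma-voom (adjusted p = 0.0537). Ifi27l2a was 432, 464, 593 and 693 CPM in Decoy, against 178 in PBS (log2 fold change 1.63 ± 0.27, adjusted p = 0.0584). Usp18 was 15.7, 14.6, 14.7 and 11.4 CPM in Decoy, against 5.87 in PBS (log2 fold change 1.29 ± 0.25, adjusted p = 0.0773). Of the 10 genes, 8 were above PBS in every Decoy library, as were 27.9% of genes with at least 10 UMIs, and 0.373% of the 11543 genes tested were called higher and 0.589% in either direction. At an unadjusted p under 0.05 in edgeR, 7 of the 10 genes and 9.91% of all genes were higher. DESeq2 called 3 of the 10, with 2.04% of genes called higher. Isg15 and Rsad2 overlapped with PBS. All 6 markers of macrophages, B, plasma and T cells on the list were above 0 in every library, with a summed level of 234 to 2753 CPM in Decoy and 145 in PBS, and Xist was 0 to 118 in Decoy and 180 in PBS; their part in the result was not tested, although with cells holding an Xist UMI left out Cmpk2 was still called (adjusted p = 0.0147), a choice made after seeing the data.

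Neutrophil-like cells had all 10 genes above PBS in every Decoy library, and none was called. Rtp4 was 101, 119, 108 and 106 CPM in Decoy, against 40.8 in PBS (log2 fold change 1.64 ± 0.26, adjusted p = 0.484). Ifit3 was 28.4, 54.3, 29.0 and 21.6 CPM in Decoy, against 1.77 in PBS (log2 fold change 4.36 ± 1.01, adjusted p = 0.608). Ifit1 was 42.4, 64.8, 46.8 and 40.5 CPM in Decoy, against 24.8 in PBS (log2 fold change 1.18 ± 0.40, adjusted p = 0.608). No gene of 9501 was called in this class, 0.0%, with 728 at an unadjusted p under 0.05 and 9 of the 10 genes and 5.64% of all genes higher at that level; 16.6% of genes with at least 10 UMIs were above PBS in every Decoy library. DESeq2 called Ifit3, Rtp4 and Ifi27l2a, with 0.537% of genes called higher. The PBS value came from 64 cells, of which 14 held an Xist UMI. Xist was 148, 0, 0 and 127 CPM in Decoy 2, 3, 5 and 6 and 176 in PBS. With cells holding an Xist UMI left out, a choice made after seeing the data, the 10 genes summed to 1126 CPM in Decoy and 476 in PBS. With those cells the sums were 988 CPM in Decoy and 343 in PBS. The summed level of the 6 other-lineage genes was 143, 21881, 18254 and 201 CPM in Decoy 2, 3, 5 and 6 and 20.4 in PBS, of which Igkc, an immunoglobulin light chain, was 47.1, 21776, 16442 and 111 CPM in Decoy and 1.77 in PBS, and its part in the result was not tested; Trac was at 0 in Decoy 3, Decoy 6 and PBS and C1qa at 0 in PBS.

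None of the 10 genes was called in B cell-like or T cell-like cells. In B cell-like cells the median log2 fold change of the 10 genes was 0.03, and only Ifit3, Xaf1 and Ifi27l2a were above PBS in every Decoy library, as were 29.1% of genes with at least 10 UMIs. Ifi27l2a was 670, 750, 929 and 915 CPM in Decoy, against 387 in PBS (log2 fold change 1.12 ± 0.24, adjusted p = 0.122). Rsad2 was 5.02, 1.69, 1.81 and 3.74 CPM in Decoy, against 38.0 in PBS (log2 fold change -3.76 ± 0.51, adjusted p = 0.0698). Of the 44 Rsad2 UMIs of PBS B cell-like cells, 28 came from 1 cell. Adult globin transcripts in these cells were 403, 48.7, 573 and 291 CPM in Decoy and 8296 in PBS, and their part in the result was not tested. In T cell-like cells Ifi27l2a was 637, 726, 1176 and 1227 CPM in Decoy, against 311 in PBS (log2 fold change 1.65 ± 0.42, adjusted p = 0.264), and Isg15 was 38.4, 57.4, 94.3 and 39.3 in Decoy, against 59.6 in PBS (log2 fold change 0.01 ± 0.54), with PBS inside the range of the Decoy libraries. Of all genes, 0.0181% of 11059 were called higher in B cell-like and 0.0% of 10327 in T cell-like cells, with 1574 and 1180 at an unadjusted p under 0.05; 0.0452% were called in either direction in B cell-like cells. At the unadjusted threshold 1 of the 10 genes was higher in B cell-like cells, where 7.49% of all genes were, and 2 of the 10 in T cell-like cells, where 7.18% were. In T cell-like cells 6 of the 10 genes were above PBS in every Decoy library, as were 26.5% of genes with at least 10 UMIs. Of the 65 T cell-like cells of PBS, 12 held an Xist UMI. Xist in this class was 279, 0.660, 0 and 168 CPM in Decoy 2, 3, 5 and 6 and 293 in PBS. DESeq2 called Ifi27l2a in B cell-like cells with 1.23% of genes called higher, and none of the 10 in T cell-like cells, with 0.91% of genes called higher. Genes of other lineages summed to 100 to 204 CPM in the B cell-like cells of Decoy and 46.6 in PBS (7 of 7 above 0 in each library), and to 1367 to 8181 CPM in the T cell-like cells of Decoy and 211 in PBS (Ngp at 0 in PBS); their part was not tested.

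The difference of the Decoy effect between Xist-bearing cells and each of these 4 classes was tested with the library as a block, and none of the 10 genes was called in any of the 4 comparisons; 0.102%, 0.0%, 0.00809% and 0.0% of all genes were called against progenitor-like, neutrophil-like, B cell-like and T cell-like cells. The difference was 2.05 ± 0.56 for Rtp4 (SE, log2, adjusted p = 0.431) and -1.43 ± 0.32 for Ifit2 (adjusted p = 0.330) against progenitor-like cells, and these fits show neither that the classes differ nor that they respond alike. Without Decoy 2, 5 of the 10 genes differed between Xist-bearing and progenitor-like cells, namely Isg15, Xaf1, Ifi27l2a, Rtp4 and Ifit2, while 8.14% of all 12422 genes were called in that fit.

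The order of levels across classes is given among classes with at least 50 cells in a Decoy library, which leaves out the 15 haemoglobin-rich Decoy cells described next. In Decoy, Ifit1, Ifit2 and Ifit3 were highest in macrophage-like and neutrophil-like cells, with Ifit1 at 48.6 ± 11.1 CPM in neutrophil-like and 44.1 ± 10.6 in macrophage-like cells (SD, n = 4 each), a difference within the spread. Rtp4 was 125 ± 33.7 in macrophage-like and 109 ± 7.59 in neutrophil-like cells, again within the spread. Cmpk2 led in neutrophil-like cells at 64.2 ± 4.76 CPM, above the 34.7 ± 3.77 of Car1 erythroid-like cells (n = 3) by more than either SD. Ifi27l2a followed another order: it was 1091 ± 151 CPM in macrophage-like and 941 ± 303 in T cell-like cells (n = 4 each). Isg15 and Usp18 had their highest means in Car1 erythroid-like cells, an early red cell class, with Isg15 at 249 ± 102 and Usp18 at 24.2 ± 1.23 CPM (n = 3). For Usp18 the macrophage-like mean was 17.8 ± 9.42 CPM (n = 4), a difference within the spread. For the summed level of the 10 genes, macrophage-like cells stood first among these classes at 1574 ± 261 CPM, and Xist-bearing cells were at 60.1 ± 18.2 (n = 3).

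**Figure D3:**
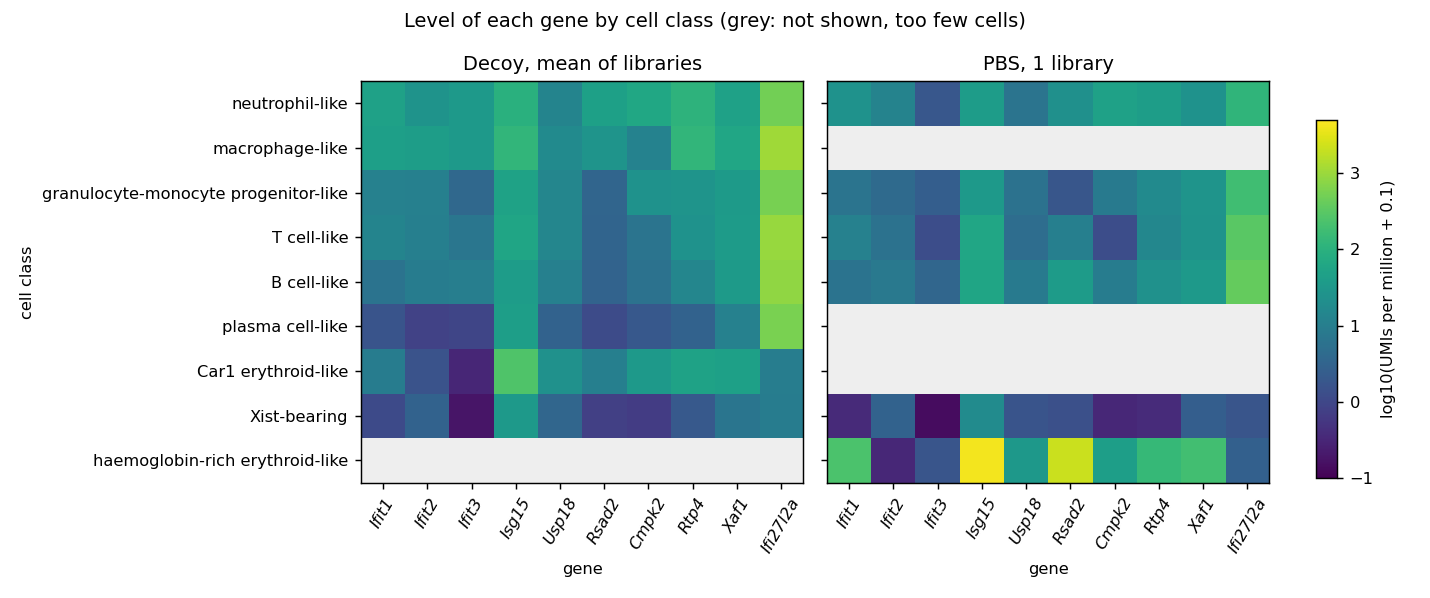
Level of each gene by cell class as colour, log10 of CPM plus 0.1, as the mean of Decoy libraries (left) and in the PBS library (right); grey rows had too few cells (under 50 in a library). Xist-bearing cells are dark for Ifit1, Ifit3, Rsad2 and Cmpk2 in both panels, and haemoglobin-rich cells of PBS are bright for Isg15 and Rsad2, at 4063 and 2109 CPM, but low for Ifit2, Ifit3 and Ifi27l2a, at 0.238, 1.67 and 2.62 CPM.

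Haemoglobin-rich erythroid-like cells, a late red cell class that also expressed Alas2, an enzyme of haem synthesis, carried part of the 10 genes at high levels without the rest. There were 551 such cells in PBS and 0, 2, 7 and 6 in Decoy 2, 3, 5 and 6, so no test was possible. In PBS, Isg15 was 4063 CPM (95% Poisson interval 4002 to 4124, counting error only) and Rsad2 2109 (2065 to 2153). Isg15 was found in 97.5% of the cells and Rsad2 in 93.6%, so the signal did not rest on a few cells. Ifit1 was 235, Xaf1 192, Rtp4 139, Cmpk2 42.8 and Usp18 32.1 CPM. Ifit2, by contrast, had 1 UMI in 551 cells, Ifit3 7 UMIs and Ifi27l2a 11 UMIs, levels of 0.238, 1.67 and 2.62 CPM. Pooled over libraries, the 15 Decoy cells had Isg15 at 2140, Rsad2 at 1630 and Ifit1 at 461 CPM, with 1 UMI of Ifit2 and 0 of Ifit3. Ifi27l2a differed from PBS, with 13 UMIs in 4 of these cells, or 63.8 CPM (34.0 to 109). Of those 13 UMIs, 10 came from 1 cell of Decoy 6. A single cell of Decoy 3 gave 137 of the 332 Rsad2 UMIs, and the 6 cells of Decoy 6 held 147023 of all 203743 UMIs. In the Car1 erythroid-like cells of Decoy 3, 5 and 6, Isg15 was 247, 352 and 148 CPM, Rsad2 was 7.86, 12.02 and 11.4 CPM, and Ifit3 was 0.131, 0.520 and 0 CPM.

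These cells held much of the signal of the PBS library. They were the source of 91.8% of all PBS Rsad2 UMIs, 80.8% of Ifit1, 63.0% of Isg15 and 56.8% of Rtp4, but of 0.0653% of Ifit2 and 0.379% of Ifi27l2a. With them left out, a choice made after seeing the data, the log2 fold change of Rsad2 over all kept cells turned to 2.42 (adjusted p = 0.466), and that of Ifit1 was 4.65 (adjusted p = 0.459). The number of Isg15 UMIs per Rsad2 UMI was 1.93 in the haemoglobin-rich cells of PBS. Low ratios also occurred in neutrophil-like cells, at 2.21, 2.21, 2.43 and 1.29 in Decoy 2, 3, 5 and 6 and 1.69 in PBS, and in the B cell-like cells of PBS, at 1.5. This last ratio rested on 66 Isg15 and 44 Rsad2 UMIs, most of the Rsad2 UMIs from a single cell. Adult globin transcripts were 8296 CPM in those B cell-like cells. In Xist-bearing cells the ratio was 111, 61.1 and 22.25 in Decoy 2, 3 and 6 and 14.4 in PBS.

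**Figure D4:**
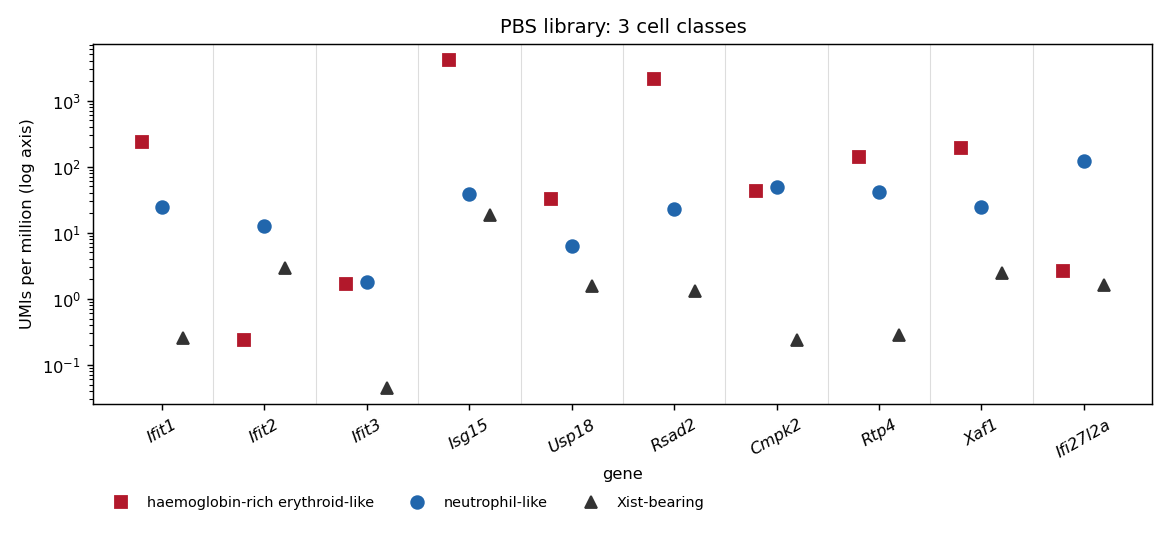
Level of the 10 genes in 3 cell classes of the PBS library (vertical axis, CPM, logarithmic); each point is the sum over the cells of 1 class. Haemoglobin-rich cells stand at 4063 for Isg15 and 2109 for Rsad2, and lie under neutrophil-like cells for Ifit2, at 0.238 against 12.4, and for Ifi27l2a, at 2.62 against 121.

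Per cell, among the 5 classes compared between groups, the 10 genes were found together most often in neutrophil-like cells. Cells were thinned to 3000 UMIs each, leaving out shallower ones, and those with UMIs of at least 3 of the 10 genes were counted. In neutrophil-like cells the share was 31.5%, 36.4%, 33.0% and 35.0% in Decoy 2, 3, 5 and 6, against 12.3% in PBS (7 of 57 cells, 95% exact binomial interval 5.08% to 23.7%). In progenitor-like cells it was 13.6%, 7.84%, 12.7% and 12.05% in Decoy, against 5.44% in PBS (8 of 147 cells, 2.38% to 10.4%). All 4 Decoy libraries were above PBS in both classes. The exact permutation test over libraries, two-sided, gave p = 0.2 in each, the smallest value that 4 libraries against 1 allow. In B cell-like cells the share was 9.52%, 3.93%, 5.18% and 4.42% in Decoy, against 9.62% in PBS (15 of 156 cells, 5.48% to 15.4%; exact permutation p = 0.2), and in T cell-like cells 7.50%, 7.95%, 16.7% and 9.91% in Decoy, against 7.69% in PBS (4 of 52 cells, 2.14% to 18.5%; exact permutation p = 0.6). In Xist-bearing cells it was 0.0771%, 0.265% and 0.142% in Decoy 2, 3 and 6, against 0.0479% in PBS (7 of 14614 cells, 0.0193% to 0.0987%), counts of 1 to 7 cells. In the haemoglobin-rich cells of PBS it was 48.1% (230 of 478 cells). Cells of other classes that held an Xist UMI were kept in these shares, and their part was not tested. Without thinning the share in neutrophil-like cells was 79.2%, 74.6%, 72.9% and 75.6% in Decoy and 46.9% in PBS, and in B cell-like cells 24.5%, 21.8%, 22.5% and 17.2% in Decoy and 11.5% in PBS, where the median depth was 6247 to 9094 UMIs in Decoy and 3928.5 in PBS.

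**Figure D5:**
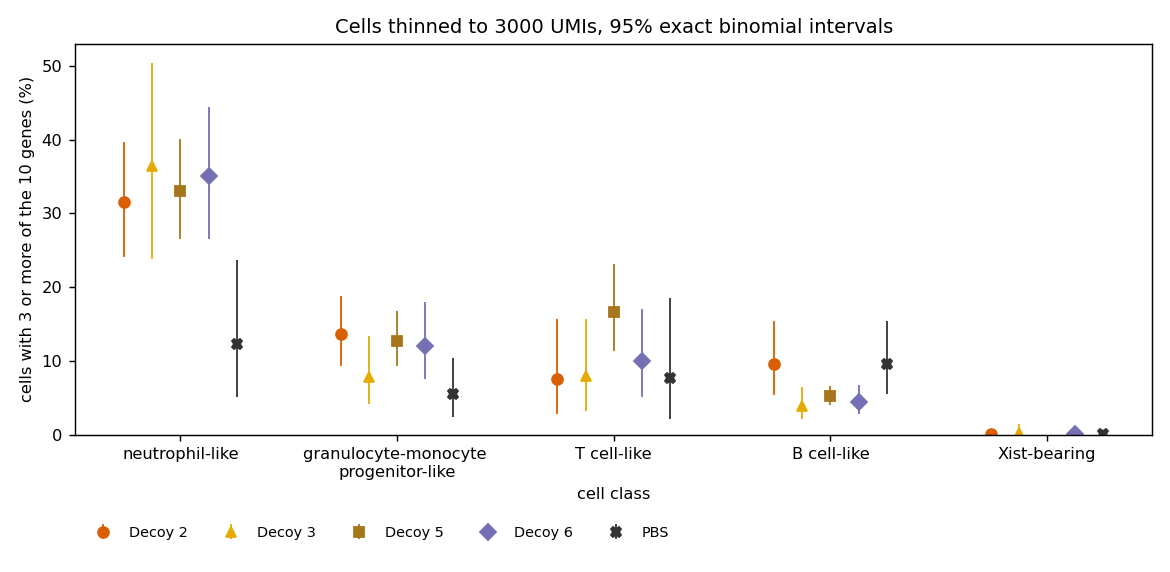
Share of cells with UMIs of at least 3 of the 10 genes after thinning to 3000 UMIs (vertical axis, percent) by class, in each Decoy library and in PBS; points are libraries and bars 95% exact binomial intervals, counting error only. Neutrophil-like cells run at 31.5% to 36.4% in Decoy against 12.3% in PBS, and Xist-bearing cells lie near 0 in every library.

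Of 59 further genes of the interferon pathway, 48 could be tested in Xist-bearing cells. There 6 were called higher and none lower, while 0.601% of all 14320 genes tested were called higher. The median log2 fold change was 0.36 against 0.00 for all genes. Lgals3bp, a secreted glycoprotein, was 3.90 ± 1.28 CPM in Decoy (SD, n = 3) and 0.584 in PBS (log2 fold change 2.80, adjusted p = 0.0133). Among the relatives of the antiviral RNA sensor OAS, Oas3 was 3.47 ± 0.97 in Decoy and 0.775 in PBS (log2 fold change 2.18, adjusted p = 0.0223), and Oasl2 was 5.72 ± 1.33 in Decoy and 1.47 in PBS (log2 fold change 1.99, adjusted p = 0.0121). Irf7, the factor that drives interferon genes, was 10.4 ± 3.92 in Decoy and 3.01 in PBS (log2 fold change 1.81, adjusted p = 0.0323). Ifitm3, which blocks viral entry, was 149 ± 34.6 in Decoy and 49.5 in PBS, and Uba7, the enzyme that activates ISG15, was 51.3 ± 5.96 in Decoy and 30.1 in PBS (log2 fold changes 1.67 and 0.85, adjusted p = 0.0138 and 0.0316). Upstream of them, Ifnar1 was 7.66 ± 0.67 in Decoy and 7.72 in PBS, Ifnar2 was 28.7 ± 0.97 in Decoy and 28.2 in PBS, Stat2 was 7.42 ± 0.55 in Decoy and 8.11 in PBS, Irf9 was 16.6 ± 0.64 in Decoy and 14.6 in PBS (log2 fold change 0.26, adjusted p = 0.482), and Stat3 was 58.9 ± 3.43 in Decoy and 66.5 in PBS (log2 fold change -0.09, adjusted p = 0.870). Tlr9 was 0 in the Xist-bearing cells of all 3 Decoy libraries and 0.004 in PBS, and Ifnb1 had no UMI in either group, so Ifnb1 could not be compared. In progenitor-like cells 2 of 50 tested pathway genes rose, Lgals3bp (log2 fold change 1.27, adjusted p = 0.0341) and Zbp1, a nucleic acid sensor (log2 fold change 0.78, adjusted p = 0.0387), and none fell. Of all 11543 genes tested in that class, 0.373% were called higher. No pathway gene was called in neutrophil-like, B cell-like or T cell-like cells or over all kept cells.

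Across 35 sums of cells by library and class, the genes whose level was most like the mean of the 10 were Irgm2 (Pearson r = 0.918), Oas3 (0.878), Gbp2 (0.875), Plcl2 (0.860), Irf9 (0.844), Oas2 (0.839), Oasl2 (0.827) and Irf7 (0.827). Among the 10, Ifit2 and Ifit3 went together at r = 0.867 and Rsad2 and Ifit1 at 0.852, whereas Isg15 and Ifit2 stood at -0.09. These values describe points that share 5 libraries and their depth, and carry no test.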

How the data were processed

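Single-cell counts of 5 libraries were deposited by the authors as unnormalized UMI counts per gene and barcode; the matrices name Cell Ranger 5.0.0 per the file headers, while Cell Ranger 3.1, Seurat 4 and DESeq2 are listed per the submitters' processing notes, with mm10. Barcodes held 56490098 to 234251245 UMIs per Decoy library and 579333323 in PBS. Cells with at least 500 genes and 1000 UMIs and at most 10% mitochondrial UMIs were kept (scanpy 1.11.5). Scrublet marked 0 to 0.412% of cells in Decoy, where 1.96% to 5.49% were expected, and 6.88% in PBS, where 15.5% were expected; marked cells were removed, and in Decoy the caller marked too few to have worked. Clusters (Leiden, resolution 0.5, leidenalg 0.10.2) were named by marker lists, so names are rebuilt. UMIs were summed per library and class of at least 50 cells and tested with edgeR 4.0.16 (R 4.3.3) after filterByExpr and TMM scaling; DESeq2 1.42.0 and limma 3.58.1 voom were alternatives. The tests were run on simulated counts with known changes and a fixed spread between libraries that was not taken from the data. They recovered 64.8% of changed genes in T cell-like, 68.7% in neutrophil-like and 70.5% in B cell-like cells. In progenitor-like and Xist-bearing cells and over all kept cells 94.0% to 99.0% were recovered. For the difference between classes the share was 93.0%, but larger changes were planted there, so it is not comparable. Changes were planted only in genes above a set level, which most of the 10 genes did not reach in Xist-bearing cells. The shares recovered therefore do not hold for genes at such low levels. Intervals cover counting error only. The members, gene lists and tests were chosen with earlier results of these data known. All 10 members were named whatever their result, with called pathway genes, fixed upstream genes and the 8 most similar genes; some of these are not reported here. Of the gene IDs, 99.6% matched GENCODE vM21.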

Additional observations from a re-analysis of the deposited data

Results flagged for a closer look

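In B cell-like cells, Decoy 2 stood apart from the other Decoy libraries in 3 of the 10 genes. These were the only ones marked among 50 groups of 4 libraries examined, near the rate that chance gives, about 1 group in 20. Ifit1 was 12.3 CPM in Decoy 2 and 3.79 to 4.50 in the other Decoy libraries, Ifit3 was 23.4 in Decoy 2 and 4.22 to 7.04 in the others, and Cmpk2 was 10.0 in Decoy 2 and 4.18 to 4.64 in the others.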

How the results depend on the processing

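Of 867 alternative values of single genes, 799 kept their direction and side of the threshold, 42 became called, 5 lost the call and 21 turned in direction; where no value shows the cause, the cause was not tested. Called members over all kept cells, 0 as reported, were 6 with DESeq2 and 0 to 8 without 1 library, and pathway genes 23 with DESeq2 and 0 to 35 without 1 library; the highest counts came without Decoy 2. In progenitor-like cells called members, 1 as reported, were 3 with DESeq2, with no filter on low counts and with doublets removed at the expected rate, 0 with limma-voom, 2 at resolution 1.0 and with Xist-holding cells left out, and 0 to 3 without 1 library. Pathway genes there, 2 as reported, were 10 with DESeq2, 6 with no filter and at resolution 1.0, 7 at the expected doublet rate, 1 with at most 5% mitochondrial UMIs, 8 without Xist-holding cells and 0 to 11 without 1 library. Of all genes there, 0.589% were called as reported, 3.46% with DESeq2, 1.40% with no filter, 2.78% at the expected doublet rate, 3.31% at resolution 1.0, 3.41% without Xist-holding cells and 5.58% without Decoy 2. In neutrophil-like cells members were 3 with DESeq2, 2 at the expected doublet rate and 1 without Xist-holding cells, and pathway genes 4 and 1 with DESeq2 and the expected doublet rate. In B cell-like cells 1 member was called with DESeq2, at the expected doublet rate and without Xist-holding cells (Ifi27l2a) and with limma-voom and no filter (Rsad2), and 1 pathway gene with DESeq2 and at the expected doublet rate. In T cell-like cells pathway genes were 3 with DESeq2, 2 with no filter, 1 at the expected doublet rate and without Xist-holding cells, and 0 to 2 without 1 library. In Xist-bearing cells pathway genes were 10 with limma-voom, 11 with no filter and 6 to 11 without 1 library. Differences in effect between Xist-bearing and other classes called 0 to 5 members against progenitor-like, 0 to 1 against neutrophil-like and 0 to 3 against B cell-like cells without 1 library. Counts given here without the share of all genes called in the same fit are not a result about the members or the pathway. The difference in the share of cells turned to -0.472 percentage points in progenitor-like cells at 5 or more genes, and to 9.99 in B cell-like cells without thinning.

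Log2 fold changes that turned were Rsad2 over all kept cells at 2.42 without haemoglobin-rich cells; in B cell-like cells Ifit1 (0.04 to 0.11 without Decoy 3, 5 or 6, and -0.45 without Decoy 2), Ifit2 (-0.15 with limma-voom, and -0.12 to 0.36 without 1 library), Isg15 and Xaf1 (0.26 and -0.041 at the expected doublet rate); in progenitor-like cells Isg15 and Rsad2 (-0.075 and -2.21 with doublets kept); in T cell-like cells Ifit1 (-0.020 with limma-voom, -0.26 at the expected doublet rate, and -0.21 to 0.52 without 1 library) and Isg15 (-0.048 without scaling, -0.10 with limma-voom, -0.54 with doublets kept, -0.43 at the expected doublet rate, and -0.36 to 0.16 without 1 library); and in Xist-bearing cells Ifit2 (-0.024 without scaling) and Rsad2 (9.76 and 9.60 after subtraction at the median and highest ratio, which set PBS to 0). Subtraction was not run for other classes, and resolution 0.3 gave no value for progenitor-like cells. No paired analysis was possible because there was only 1 PBS library. In Xist-bearing cells several of the 10 genes stay under 1 CPM.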

Other observations

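Among Decoy libraries, Isg15 was lowest in Decoy 6 in 7 of 8 cell classes and highest in Decoy 5 in 5 of 8. Ifi27l2a was lowest in Decoy 2 in 7 of 8 and highest in Decoy 5 in 5 of 8.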
